A study of Mus musculus with 2 samples.

Results

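Collagen chain genes encode the subunits of the collagens, the most abundant proteins of the extracellular matrix. Every protein-coding gene was taken whose symbol is Col, a number, a and a number, which gave 44 genes of the 55401 listed. They were sorted by chain name into 11 fibrillar, 6 basement membrane (type IV), 6 type VI, 9 FACIT and 12 other chains. Of the 44, 30 reached 1 FPKM (a fragment count divided by exon length and by library size) in at least 1 library, and 14 did not. The libraries are 1 of wild-type and 1 of Dyrk2-KO mouse pituitary, both taken at embryonic day E12.5. Dyrk2 encodes a protein kinase, and the study's title asks about primary cilia, cell types and vessel growth in the developing gland. No strain, sex, number of embryos per library or way of making the knockout is given in the sources used here. Each genotype is a single library, so differences could not be checked against replicates and p-values are not given. Intervals are exact 95% intervals for counting error, and say nothing of the spread between embryos or dissections.

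Collagen chains assemble in threes through a helix built of Gly-X-Y triplets, in which glycine is the only residue small enough for the core. Fibrillar collagens build the fibrils of connective tissue, and FACIT collagens sit on the surface of those fibrils. Type IV forms the sheet network of basement membranes beneath epithelia and around vessels, and type VI forms beaded filaments between cells. In the early pituitary the epithelial pouch rests on such a membrane, and surrounding mesenchyme supplies stroma and vessels. In RNA from whole tissue, fewer cells of a type and less RNA per cell cannot be told apart.

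The repeat is written in the genes as a glycine codon, GGN, at the head of each triplet of codons, often in exons of 54 bases that hold 6 such triplets. The first coding exon of this kind is shown for the type VI and type I chains, the partner sets with the lowest mean log2 ratio over their chains, with glycine codons in capitals. Col14a1, Col13a1 and Col4a1 were added after their values were seen, the first 2 as the chains furthest from equality and the last as a type IV chain near level. Sequences are from GENCODE M21 transcripts on GRCm38. The exons lie at chr11:94939904-94939957 (plus strand), chr6:4515481-4515534 (plus), chr10:76719623-76719676 (minus), chr10:76611948-76612001 (minus), chr1:90795915-90795968 (minus), chr15:55467960-55468013 (plus), chr10:61869524-61869577 (minus) and chr8:11245211-11245264 (minus).
Col1a1: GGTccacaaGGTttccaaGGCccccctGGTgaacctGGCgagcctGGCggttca
Col1a2: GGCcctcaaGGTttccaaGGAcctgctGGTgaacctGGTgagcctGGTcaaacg
Col6a1: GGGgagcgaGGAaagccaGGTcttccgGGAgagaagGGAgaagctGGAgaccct
Col6a2: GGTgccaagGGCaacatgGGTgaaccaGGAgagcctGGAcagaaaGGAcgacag
Col6a3: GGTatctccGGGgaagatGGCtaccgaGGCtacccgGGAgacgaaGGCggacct
Col14a1: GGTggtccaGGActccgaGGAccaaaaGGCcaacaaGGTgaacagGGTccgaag
Col13a1: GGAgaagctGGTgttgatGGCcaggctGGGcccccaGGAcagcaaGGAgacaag
Col4a1: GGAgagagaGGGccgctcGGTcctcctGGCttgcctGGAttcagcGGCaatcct
Compared position by position, the Col1a1 and Col1a2 exons share 42 of 54 bases, and those of Col6a1, Col6a2 and Col6a3 share 24 to 28 of 54 between pairs. Each is the first such exon of its gene, so those of a pair need not correspond. The GG of the 6 glycine codons matches by selection. These counts therefore do not measure how alike the partner chains are. An exon of this kind was found in 39 of the 44 genes.

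The classes differ in how long the repeat runs without a break. The longest uninterrupted run had a median of 338 triplets in fibrillar chains, with a range of 216 to 344, and 9 of the 11 had a run of at least 337. Type IV chains carried 22 to 27 separate runs of at least 6 triplets, and none of their runs was longer than 66. Type VI chains had 3 to 5 runs with a longest of 87 in Col6a1 and Col6a2, and FACIT chains reached 113 at most. Fibrillar genes held 21 to 33 coding exons of 54 bases each, against 1 to 3 in type IV genes and 2 to 3 in type VI genes. Col8a1, Col8a2 and Col10a1, the short-chain network collagens, have 2 coding exons and none of 54 bases.

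The deposited values correspond to 20045862 counted fragments (wild type) and 20116008 (knockout). A single fragment on 1 kb of exon was worth 0.0499 and 0.0497 FPKM, respectively. Dyrk2 itself measured 11.5 and 1.93 FPKM, 16.8% of the wild-type level in the library labelled knockout. Epithelial markers of the pituitary were abundant in both, with Pitx1 at 250 and 227 FPKM and Hesx1 at 45.2 and 43.9 FPKM. Transcripts of both sexes were present in unequal proportions, with Xist at 74.98 and 14.76 FPKM and the Y-linked Ddx3y at 5.83 and 14.95 FPKM. Genotype and sex mixture cannot be told apart in these libraries.

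All collagen chains together summed to 874 FPKM in the wild-type and 681 FPKM in the knockout library, 0.693% and 0.545% of counted fragments. A small number of chains made up most of this. Col18a1, the basement membrane collagen whose end fragment is endostatin, was the most expressed in both, at 174 and 135 FPKM. Col2a1, the main fibril chain of cartilage, followed at 141 and 121 FPKM, and Col3a1, a fibril chain of soft tissue and vessels, measured 91.7 and 62.1 FPKM. Together with the type IV chain Col4a1 and the FACIT chain Col9a2, these chains held 62.6% of collagen FPKM in the wild-type and 65.0% in the knockout library. Col1a1 stood at rank 7 of 44 in the wild-type and at rank 11 in the knockout library. Of the 44 chains, 16 had at least 10 FPKM in the wild-type and 12 in the knockout library.

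**Figure D1:**
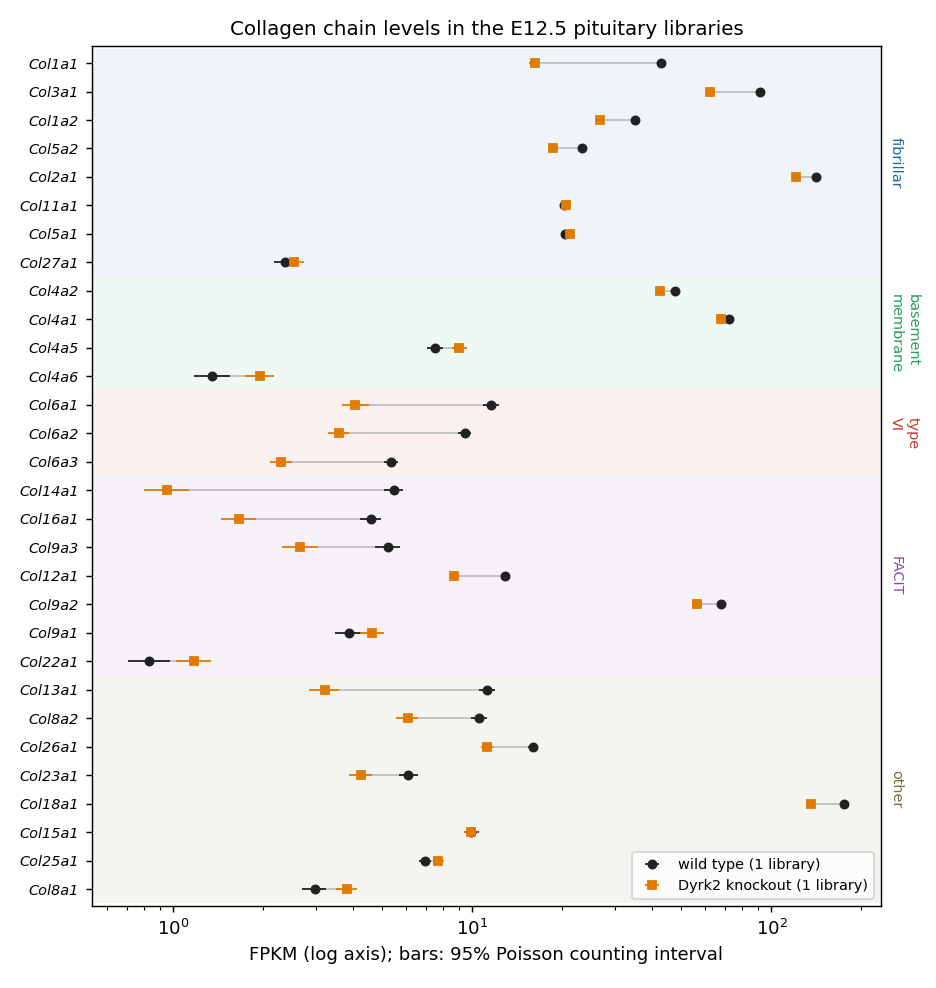
FPKM of the 30 collagen chains at 1 FPKM or more, on a log axis, with 1 point per library (black circle wild type, orange square Dyrk2 knockout) and 95% Poisson counting intervals, grouped by class. The widest gaps belong to Col14a1 (5.46 and 0.95 FPKM) and Col13a1 (11.2 and 3.21 FPKM), while Col11a1, Col5a1 and Col15a1 nearly coincide.

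Collagen chains differed mostly in 1 direction, lower in the knockout library. With 0.5 FPKM added to both values, 9 of 30 chains (30.0%) were at least 1.5-fold lower, against 4.56% of all 14000 genes at 1 FPKM or more and 2.95% of the 12105 protein-coding ones. None of the 30 was at least 1.5-fold higher, against 2.06% of all genes and 1.08% of protein-coding genes. At 2-fold the counts were 7 lower and 0 higher, against 1.89% and 0.857% of all genes. The counting interval of the plain ratio lay below 1 for 20 chains and above 1 for 6, against 22.3% and 17.7% of all genes, and for 4 chains it included 1. Such an interval narrows as fragments rise, so these shares are not a like comparison for chains with many fragments. That of Col4a1, with 10782 and 10207 fragments, lay below 1 at a difference of only 1.06-fold. The median log2 ratio, knockout over wild type, was -0.34 over the 30 chains and -0.02 over all genes. The 9 chains are Col14a1, Col13a1, Col6a1, Col1a1, Col6a2, Col16a1, Col6a3, Col9a3 and Col8a2, and for all 9 the counting interval lay wholly beyond 1.5-fold. Folds below are plain ratios of FPKM.

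**Figure D2:**
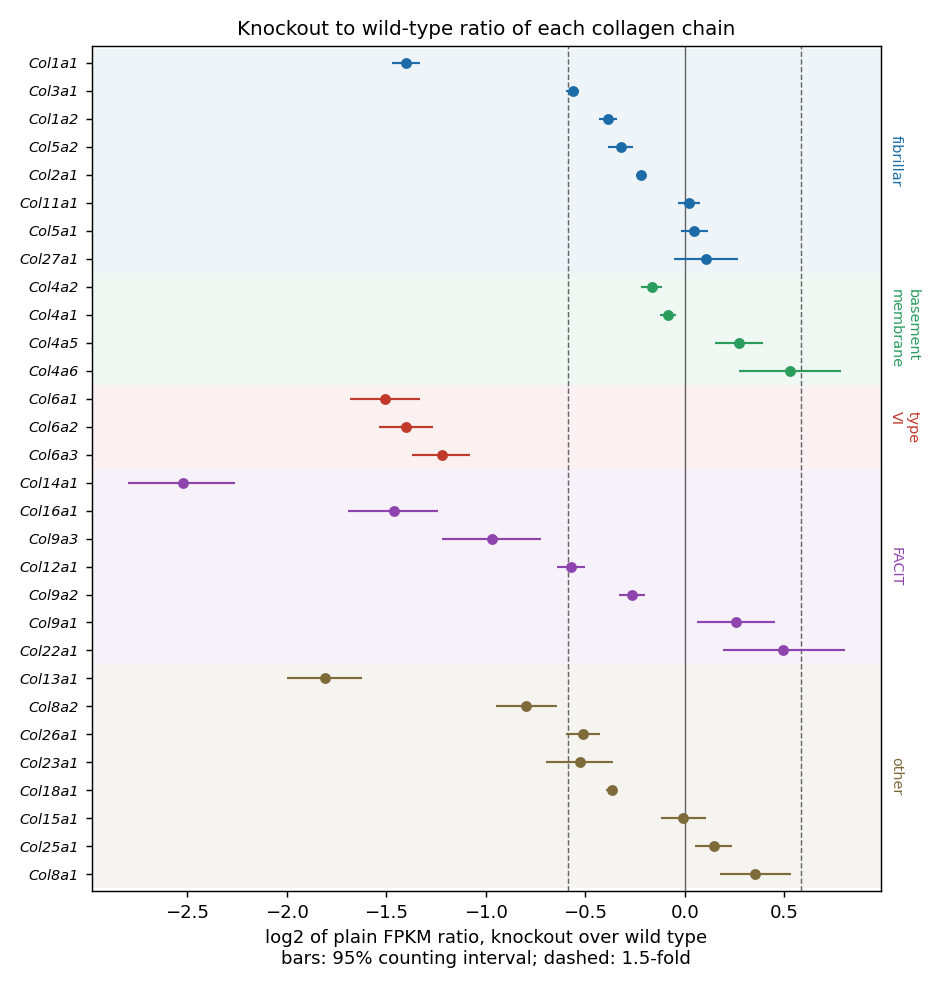
Log2 of the plain FPKM ratio, knockout over wild type, for the same 30 chains by class, with 95% counting intervals and dashed lines at 1.5-fold. The 3 type VI chains lie together left of the line, type IV chains lie on both sides of 0, and the FACIT class spreads from Col14a1, 5.75-fold lower, to Col22a1, above 0.

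In type VI all 3 measured chains, of 6 in the class, were more than 2-fold lower in the knockout library. With 0.5 FPKM added they were still past 2-fold, as were 1.89% of all genes at 1 FPKM or more. Col6a1, the alpha1 chain, measured 11.5 FPKM in the wild-type and 4.06 FPKM in the knockout library, 2.84-fold lower (95% interval 2.51 to 3.21). Col6a2, the alpha2 chain, measured 9.45 and 3.58 FPKM, 2.64-fold lower (2.40 to 2.90). Col6a3, the large alpha3 chain that completes the classic monomer, measured 5.36 and 2.30 FPKM, 2.33-fold lower (2.11 to 2.58). The summed level of the class was 26.49 and 10.02 FPKM, which leaves the smallest share of the collagen total of any class in both libraries, 3.03% and 1.47%. The alternative long chains Col6a4, Col6a5 and Col6a6 were at 0.09 FPKM or less in both libraries.

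The bases upstream of start sites were examined for Col1a2, Col6a1, Col6a2 and Col6a3, and Col1a1 was not examined. RefSeq promoter windows on GRCm38.p6 matched 35 of the 44 members, in 38 windows, and the 250 bases before each start were searched on both strands for TATAAA (the TATA box), CCAAT (the CCAAT box), GGGCGG (the GC box) and TGGGTGGTC (the binding motif of Gli factors, which act in Hedgehog signalling at the cilium). None of these 4 words contains another. The longest stretch of each window outside annotated exons is shown 5' to 3' on the gene's strand, with matches in capitals, for Col1a2 (chr6:4505370-4505492, plus strand), Col6a1 (chr10:76726169-76726294, minus), the outer start of Col6a2 (chr10:76623631-76623880, minus) and Col6a3 (chr1:90843972-90844221, minus).
Col1a2: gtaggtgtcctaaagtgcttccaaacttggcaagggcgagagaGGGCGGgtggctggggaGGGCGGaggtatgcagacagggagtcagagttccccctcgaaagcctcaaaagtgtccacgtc
Col6a1: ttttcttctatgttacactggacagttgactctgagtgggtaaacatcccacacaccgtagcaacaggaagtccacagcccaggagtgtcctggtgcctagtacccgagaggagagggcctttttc
Col6a2: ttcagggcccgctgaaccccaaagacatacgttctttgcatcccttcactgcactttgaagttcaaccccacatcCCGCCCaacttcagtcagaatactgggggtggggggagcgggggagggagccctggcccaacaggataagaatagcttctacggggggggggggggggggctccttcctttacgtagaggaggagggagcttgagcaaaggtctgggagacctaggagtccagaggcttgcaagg
Col6a3: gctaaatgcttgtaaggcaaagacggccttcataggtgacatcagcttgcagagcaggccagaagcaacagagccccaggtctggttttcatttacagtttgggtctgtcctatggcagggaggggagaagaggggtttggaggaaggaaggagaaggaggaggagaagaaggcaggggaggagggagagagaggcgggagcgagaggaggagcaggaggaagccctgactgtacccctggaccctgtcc
These stretches show a pair of GC boxes before Col1a2 and 1 match of that motif, on the other strand, before Col6a2. The whole Col1a2 window also holds a CCAAT match, and a second window of Col6a2, at an inner start, holds 3 GC boxes, none of them within the letters shown. The stretches of Col6a1 and Col6a3 hold no match to any of the 4 words. Over all 38 collagen windows the GC box was in 57.9%, against 32.7% of 32851 promoter windows. The windows were not matched for GC content, which ranged from 35.2% to 76.4% over the collagen windows. The TATA box was in 13.2% against 12.4%, and the CCAAT box in 34.2% against 33.8%. The Gli word was in none of the 38 and in 0.225% of all windows. These are matches of letters within 250 bases and not measured binding.

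Fibrillar chains were unevenly lower. Col1a1, the alpha1 chain of the fibril collagen of bone, skin and tendon, measured 42.7 and 16.2 FPKM, 2.64-fold lower (2.51 to 2.78). Col1a2, its partner in the type I trimer, measured 34.9 and 26.7 FPKM, 1.31-fold lower (1.27 to 1.35). The 2 intervals are far apart, so the chains of type I did not differ by the same factor. Col3a1, which forms fibrils with type I, was 1.48-fold lower (1.44 to 1.51), just short of the 1.5-fold threshold. Its difference in level, knockout minus wild type, of -29.6 FPKM was larger than that of Col1a1, -26.5 FPKM, and among the 44 chains was exceeded only by that of Col18a1, -39.0 FPKM.

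The chains that start and regulate fibrils stayed closer. Col5a1, the alpha1 chain of type V, measured 20.5 and 21.2 FPKM, and its interval included equality. Col5a2, the other main chain of type V, measured 23.3 and 18.6 FPKM, 1.25-fold lower (1.196 to 1.306). Col11a1, the nucleating chain of cartilage fibrils, was at 20.3 and 20.5 FPKM, and Col27a1, a chain of thin cartilage fibrils, at 2.36 and 2.54 FPKM. Col2a1 was 1.17-fold lower (1.14 to 1.19). Of the 8 fibrillar chains measured, 5 had intervals below 1, 3 included 1 and none lay above. Over all genes 22.3% lay below and 17.7% above, with the limit on such shares given above. The median log2 ratio of the class was -0.27. Col11a2, Col24a1 and Col5a3, the remaining fibrillar chains, were under 1 FPKM in both libraries.

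Type IV, the basement membrane network, was the class nearest to level, with its pairs on opposite sides of equality. Col4a1 and Col4a2, which form the network found in nearly all basement membranes, measured 72.1 and 68.0 FPKM and 47.7 and 42.5 FPKM. They were 1.06-fold (1.03 to 1.09) and 1.12-fold lower (1.08 to 1.16). Col4a5 and Col4a6, chains of more specialised membranes, were higher in the knockout library, at 7.49 and 9.05 FPKM (1.21-fold, 1.11 to 1.31) and 1.35 and 1.95 FPKM (1.44-fold, 1.21 to 1.73). No chain of the class reached 1.5-fold in either direction. Col4a5 and Col4a6 are the X-linked members, and the libraries differ in sex mixture as given above, whose part in these values was not tested. The class median was 0.09, and it took the opposite sign, -0.083, with a filter of 5 FPKM, which leaves Col4a6 out. The kidney and lung chains Col4a3 and Col4a4 were at 0.10 FPKM or less.

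FACIT chains covered the widest range. Col14a1, which binds fibrils in tendon and skin mesenchyme, measured 5.46 and 0.95 FPKM, 5.75-fold lower (4.78 to 6.96), the lowest ratio of all 30 chains. Col16a1, a minor fibril-associated chain of fibroblasts and smooth muscle, measured 4.57 and 1.66 FPKM, 2.75-fold lower (2.36 to 3.23). Col12a1, a close relative of Col14a1, measured 12.9 and 8.67 FPKM, 1.49-fold lower (1.41 to 1.56). These 3 chains were all lower, although Col12a1 and Col14a1 had intervals far apart.

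The type IX chains, which decorate cartilage fibrils as a trimer of 3 different subunits, did not move together. Col9a2 measured 67.8 and 56.5 FPKM, 1.2005-fold lower (1.148 to 1.256), and Col9a3 5.21 and 2.66 FPKM, 1.96-fold lower (1.65 to 2.33). Col9a1 was on the other side, at 3.86 and 4.61 FPKM, 1.19-fold higher (1.04 to 1.37). An exon of Col9a3 overlaps one of Tcfl5 on the opposite strand, and Tcfl5 was at 0.54 and 0.20 FPKM. Col22a1, a chain of tissue junctions, was 1.41-fold higher (1.14 to 1.75), at 0.83 and 1.17 FPKM. Of the 7 FACIT chains measured, 5 had intervals below 1 and 2 above (22.3% and 17.7% over all genes, with the limit given above). The median log2 ratio of the class was -0.55.

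The remaining chains include membrane-spanning, network and basement membrane zone collagens. Col13a1, a membrane-spanning collagen of cell adhesion sites, measured 11.2 and 3.21 FPKM, 3.50-fold lower (3.08 to 3.99), the second lowest ratio of the 30 chains. The other membrane-spanning chains were nearer to equality. Col23a1 measured 6.11 and 4.24 FPKM, 1.44-fold lower (1.28 to 1.62), and Col25a1, known from neurons and muscle innervation, 6.96 and 7.70 FPKM, 1.11-fold higher (1.04 to 1.18).

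Among the chains left, the short-chain network collagens parted. Col8a2 measured 10.5 and 6.07 FPKM, 1.74-fold lower (1.56 to 1.93), and Col8a1, which forms the same kind of hexagonal lattice around vessels and in the eye, 2.97 and 3.80 FPKM, 1.28-fold higher (1.13 to 1.45). The intervals lie on opposite sides of 1. Col18a1 was 1.29-fold lower (1.26 to 1.31), while Col15a1, its closest relative, was level at 9.93 and 9.88 FPKM. Col26a1, a secreted chain with short helical stretches, measured 15.9 and 11.2 FPKM, 1.43-fold lower (1.34 to 1.51). The median log2 ratio of the 8 measured chains of this mixed group was -0.42.

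The 14 chains under 1 FPKM in both libraries ranged from 0 to 0.91 FPKM. The counting interval lay below 1 for Col20a1 and Col5a3 and above 1 for Col17a1, which were singled out after their values were seen. Col17a1, the membrane-spanning collagen of epithelial anchoring junctions, measured 0.39 and 0.91 FPKM. With 0.5 FPKM added it is the only chain of the 44 that would pass 1.5-fold in the higher direction without a minimum level. Col7a1, the anchoring fibril chain, measured 0.36 and 0.38 FPKM, and Col10a1, the marker of hypertrophic cartilage, 0.02 and 0.03 FPKM. Col19a1 and Col28a1 were at 0.06 FPKM or less. For most of the 14, values to 2 decimals do not settle the exact number of fragments.

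Chains that build the same protein stood in other proportions in the knockout library for several collagen types. The ratio of Col1a1 to Col1a2 FPKM was 1.22 (1.18 to 1.27) in the wild-type and 0.606 (0.576 to 0.636) in the knockout library, a 2.02-fold shift. The annotated exons of Col1a2 sum to 12426 bases while its longest coding transcript has 5348, so the absolute ratio depends on the length used. Per coding transcript it was 0.583 and 0.288. The shift is the same by arithmetic, since both libraries were rescaled by the same lengths. This rescaling takes all fragments of a gene as coming from that transcript, which was not measured. Col9a1 to Col9a3 went from 0.741 (0.643 to 0.854) to 1.73 (1.47 to 2.05), crossing equality. Col8a1 to Col8a2 went from 0.282 (0.252 to 0.315) to 0.626 (0.557 to 0.705). Col5a1 to Col5a2 went from 0.880 (0.842 to 0.920) to 1.14 (1.09 to 1.19). Col11a1 to Col2a1, set side by side for type XI, went from 0.143 (0.139 to 0.148) to 0.170 (0.164 to 0.175). By contrast, Col6a1 to Col6a2 was 1.22 (1.13 to 1.32) and 1.13 (0.992 to 1.29), and Col4a1 to Col4a2 was 1.51 (1.47 to 1.56) and 1.60 (1.55 to 1.65). Col6a1 to Col6a3 differed by more, at 2.15 (1.98 to 2.34) and 1.77 (1.54 to 2.02), with intervals that only just overlapped. The intervals of the 2 libraries overlapped for the type VI and type IV pairs, and were apart for the pairs of types I, V, VIII, IX and XI given here. Overlap does not show that a pair kept its ratio.

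**Figure D3:**
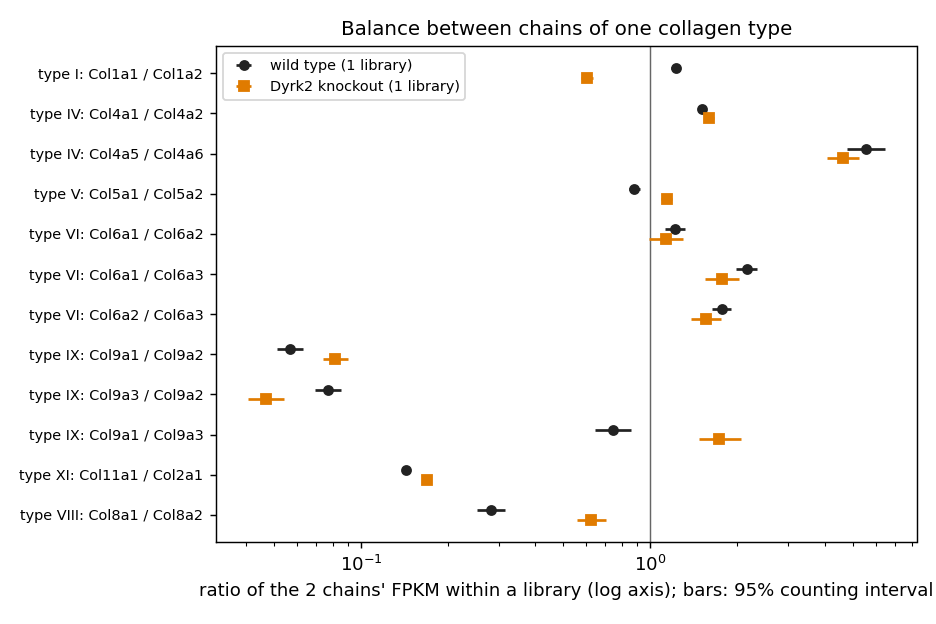
Ratio of the FPKM of 2 chains of the same collagen type within each library, on a log axis, with 95% counting intervals (black circle wild type, orange square Dyrk2 knockout). The pairs Col1a1 and Col1a2, Col9a1 and Col9a3, and Col8a1 and Col8a2 have well separated points, and the pairs of Col6a1, Col6a2 and Col6a3 lie close.

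Several chain genes are neighbours on a chromosome, and some neighbours had like ratios and others did not. Col4a1 and Col4a2 lie head to head on chromosome 8 with 22 bases of overlap at their starts, and both were near level. Col4a6 and Col4a5 lie head to head on chromosome X with 1.31 kb between them, and both were higher. Col6a2 and Col6a1 lie on the same strand of chromosome 10, 85.2 kb apart, with log2 ratios of -1.29 and -1.40. Col18a1, a further 326 kb along, had -0.36. Col3a1 and Col5a2, tail to tail on chromosome 1 with 24.6 kb between them, had -0.56 and -0.31. Col1a1 and Col1a2, by comparison, lie on chromosomes 11 and 6. Exons of 7 of the 30 chains overlap an exon of another gene, including Col4a1 and Col4a2 with each other, and the use of strand in counting is not given in the sources used here.

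Chains that encode helices of the same length differed in ratio. The 7 measured chains with a run of 338 to 344 triplets had log2 ratios from -1.37 (Col1a1) to 0.05 (Col5a1). Col6a1 and Col6a2, which share a longest run of 87 triplets, had -1.40 and -1.29. Col9a1, Col9a2 and Col9a3, which share a longest run of 113, had 0.23, -0.26 and -0.85.

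**Figure D4:**
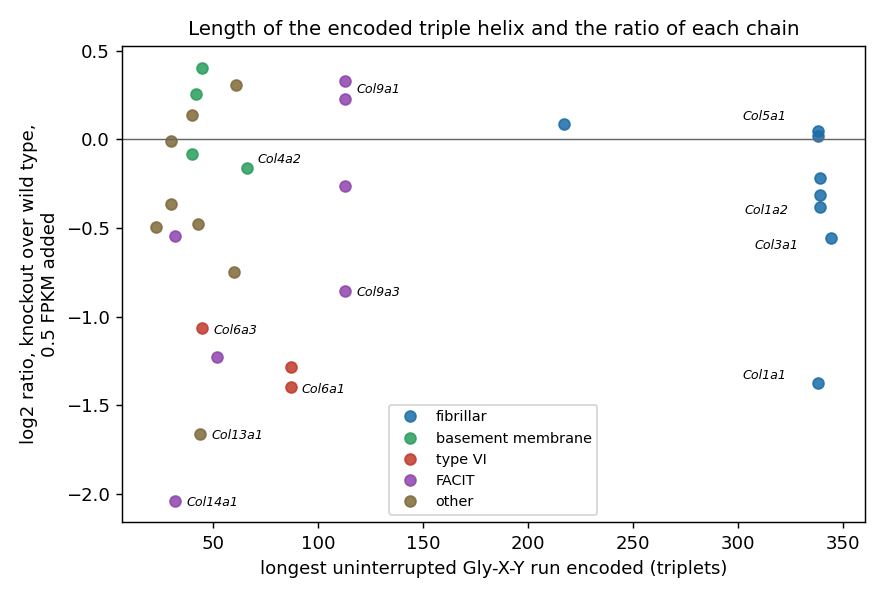
Log2 ratio, knockout over wild type with 0.5 FPKM added, against the longest uninterrupted Gly-X-Y run encoded by each of the 30 chains, coloured by class. Chains with the same run length spread widely, from Col1a1 at -1.37 to Col5a1 at 0.05 at 338 triplets.

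The enzymes and chaperones that make collagen were mostly near level. Of 55 genes listed for making, processing, binding and degrading collagen, 46 passed the filter. Of these, 5 (10.9%) were at least 1.5-fold lower and none as much higher, beside the shares of all genes given above, and the median log2 ratio was -0.12. Counting intervals lay below 1 for 24 of the 46 and above 1 for 7, with the limit on such shares given above. Serpinh1, the collagen chaperone HSP47, measured 332 and 339 FPKM, and P4hb, a subunit of the prolyl hydroxylase, 253 and 247 FPKM. The peptidyl-prolyl isomerase gene Ppib measured 63.0 and 65.4 FPKM, and the chaperone Fkbp10 40.5 and 38.4 FPKM. The exceptions were P3h3, a member of the prolyl 3-hydroxylase family, at 20.8 and 13.4 FPKM, and Creb3l1, a transcription factor that drives collagen genes in bone, at 7.07 and 3.30 FPKM, 2.14-fold lower (1.78 to 2.58).

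Genes that act outside the cell were mostly less than 1.5-fold apart, with exceptions among receptors and proteases. Counting intervals lay below 1 for 5 of 7 receptor genes and 5 of 7 degradation genes above the filter, and above 1 for none. Over all genes 22.3% lay below and 17.7% above, with the limit on such shares given above. The propeptide-cleaving protease Bmp1 measured 17.9 and 16.5 FPKM and its enhancer Pcolce 9.58 and 7.91 FPKM. The crosslinking enzymes Lox and Loxl2 were higher in the knockout library, at 9.42 and 10.6 FPKM and at 8.81 and 10.03 FPKM. Loxl1 and Loxl3 were lower, at 10.58 and 7.77 FPKM and at 5.38 and 4.36 FPKM, and were named after their values were seen. No gene of the propeptide cleavage and crosslinking lists reached 1.5-fold with 0.5 FPKM added. As plain ratios, Tll2, a protease related to Bmp1, was lower at 1.14 and 0.60 FPKM (fold interval 1.37 to 2.67) and Pcolce2 1.66-fold higher (1.31 to 2.13), both named after their values were seen. Among collagen receptors Itgb1, the shared beta subunit, measured 122 and 118 FPKM and the receptor kinase Ddr1 57.8 and 52.3 FPKM. Itga11 and Itga1, the alpha subunits of mesenchymal cells that pair with it to bind fibrillar and type IV collagen, were 2.87-fold (2.31 to 3.56) and 2.48-fold lower (2.10 to 2.92), at 3.24 and 1.13 FPKM and at 1.39 and 0.56 FPKM. Of the proteases, Mmp14 and Mmp2 measured 39.0 and 33.8 FPKM and 27.5 and 24.2 FPKM, and Mmp9, a gelatinase, 1.17 and 0.10 FPKM, 11.7-fold lower (5.53 to 30.5).

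Markers of mesenchyme and of vessel wall cells were lower in part. Of 10 mesenchyme markers, all above the filter, 5 were at least 1.5-fold lower and 1 higher, against 4.56% and 2.06% of all genes. Foxf2 measured 15.3 and 2.78 FPKM, Foxd1 13.8 and 3.62, Twist1 15.7 and 6.84, Twist2 2.42 and 1.03, and Pdgfra 7.51 and 5.43, while Prrx1 was at 0.83 and 1.67. Dcn, the fifth of the lower markers, measured 3.18 and 1.88 FPKM. Msx1, the most expressed of the list, was lower by less, at 57.5 and 48.3 FPKM. Lum was 1.19-fold higher (1.10 to 1.30), at 20.3 and 24.2 FPKM. Prrx2 measured 2.77 and 3.19 FPKM, and its interval included equality. Dcn, Msx1, Lum and Prrx2 were named after their values were seen. The list summed to 139 FPKM in the wild-type and 98.9 FPKM in the knockout library. Of 8 pericyte and smooth muscle markers, 5 reached 1 FPKM, among them 3 that were at least 1.5-fold lower (4.56% of all genes), with Acta2 at 25.7 and 1.58 FPKM, Tagln at 9.34 and 2.38 and Pdgfrb at 17.7 and 8.50, and the list summed to 85.2 and 35.2 FPKM. Rgs5 and Mcam, also above the filter, were less than 1.5-fold lower, at 8.71 and 6.63 and at 21.8 and 15.2 FPKM. Myh11, Cnn1 and Des were under the filter. Myh11 and Cnn1 measured 0.95 and 0.05 and 0.53 and 0.02 FPKM. Des went the other way, at 0.54 and 0.85 FPKM (1.57-fold higher, 1.03 to 2.36). Rgs5, Mcam and Des were named after their values were seen. These sums were lower along with the type I and type VI chains, and their part in the collagen values was not tested. The marker lists were chosen with earlier results of these data known, so their shares are not an independent comparison with all genes.

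Other cell types were nearer to level. Endothelial markers had a median log2 ratio of 0.12 over 8 genes, with Pecam1 at 9.54 and 10.8 FPKM, Cdh5 at 24.1 and 28.1 and Kdr at 8.91 and 10.2. Epithelial markers had a median of -0.03 over 8 genes, with Lhx3 at 73.0 and 85.9 FPKM and Lhx4 at 8.61 and 5.52. Laminins and nidogens, the partners of type IV in basement membranes, had a median of -0.07 over 8 genes, with Lama1 at 5.20 and 4.26 FPKM, Lama4 at 5.21 and 5.63 and Lama5 at 18.3 and 17.6. Of these 8 genes 7 were lower and 1, Lama4, was higher. Their counting intervals lay below 1 for 5 and above 1 for 1, against 22.3% and 17.7% of all genes, with the limit on such shares given above. Type IV and the laminin network thus both had medians near level, though most laminin and nidogen genes were lower.

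The cartilage matrix genes Acan and Matn1 were near 0. Acan, which encodes the main cartilage proteoglycan, was at 0.39 and 0.11 FPKM and Matn1 at 0.10 and 0 FPKM, far below Col2a1. Sox9, a regulator of cartilage that is also active in other tissues, measured 10.2 and 9.37 FPKM, and Matn4 3.30 and 0.18 FPKM. Cnmd and Hapln1, also above the filter, measured 4.93 and 4.07 FPKM and 1.28 and 0.97 FPKM. Matn3, Comp and Snorc were at 0.15 FPKM or less in both libraries. These 5 genes were named after their values were seen. The cartilage list had 4 of 9 genes above the filter, a median of -0.26 and sums of 20.34 and 14.97 FPKM. Bone markers were low, with Runx2 at 0.26 and 0.17 FPKM, Sp7 at 1.09 and 0.38, Alpl at 1.77 and 2.26 and Bglap at 0 and 0.40, and the 2 above the filter had a median of -0.29. Of the skeletal muscle markers 1 of 5 passed the filter, at a log2 ratio of 0.08, with Myod1 at 0.05 and 0.24 FPKM, Myog at 0.13 in both, Myf5 listed at 0 in both and Actc1 at 0.09 and 0.40.

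**Figure D5:**
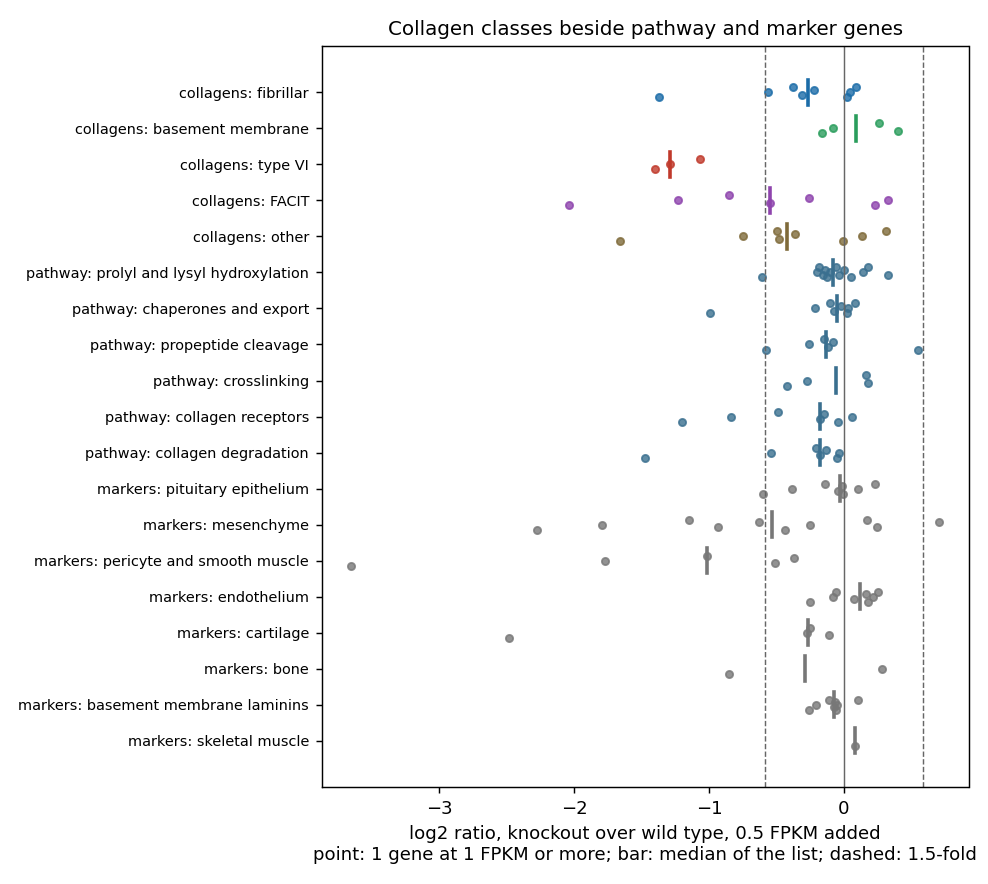
Log2 ratio, knockout over wild type with 0.5 FPKM added, of every gene at 1 FPKM or more in the 5 collagen classes, the 6 pathway lists and 8 marker lists, with the median of each list as a bar and dashed lines at 1.5-fold. Type VI (median -1.29) and pericyte and smooth muscle markers (median -1.02) lie furthest to the left, and the medians of the pathway lists lie between -0.18 and -0.05.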

How the data were processed

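RNA of E12.5 pituitaries, 1 wild-type and 1 Dyrk2-KO sample, went through a stranded, polyA-selected library preparation, per the labels' protocols. The authors deposited 1 table per library with gene identifiers, summed exon length and FPKM, rounded to 2 decimals, per the file headers. The submitters' processing notes list cutadapt 1.9.1, HISAT2 2.0.1 and build GRCm38. What counted the fragments, whether strand was used, and which annotation: not given in the sources used here.

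Gene names, types and positions were taken from GENCODE M21 (GRCm38), which matched 55141 of 55401 identifiers. Depth was recovered from the steps of FPKM times length: of values worth 100 fragments or fewer, with rounding below 0.05 fragment, all 1512 (wild type) and 1372 (knockout) were whole within 0.1 fragment. For chains above the filter, rounding leaves up to 1.53 fragments, at most 0.603% of the fragments, unresolved. Intervals are exact Poisson (levels) and Clopper-Pearson (ratios). PCR copies are not separable, so they cover counting error only. Genes at 1 FPKM or more in at least 1 library were compared by log2 ratio after adding 0.5 FPKM, which understates the change of weak genes. No count model was used, and no test was possible.

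The class of a chain was read from its name, with type IV alone as basement membrane. Coding sequences were those of the longest coding basic transcript. All 30 chains above the filter are named, with pathway genes at least 1.5-fold apart, the 2 most expressed of each pathway list, the first 3 markers of each list and, of the first 8, those at least 1.5-fold apart. Members, lists and rules were chosen with earlier results of these data known. A further marker list is not reported here. Steps were tested on simulated data. Python 3.11.15, NumPy 2.4.6, pandas 2.3.3 and SciPy 1.17.1 were used.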

Additional observations from a re-analysis of the deposited data

How the results depend on the processing

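No paired analysis was possible because each genotype has a single library, and leaving out a library was not possible for the same reason. The count of 9 lower chains was 8 or 9 under every alternative run: pseudocounts of 0.1 and 2 FPKM, a filter of 5 FPKM or none, trimmed mean and upper quartile scaling (knockout values times 1.03 and 1.02) and, chosen after seeing the data, chains without overlapping exons and intervals wholly beyond 1.5-fold. Without a filter 1 chain was higher instead of 0, the median over chains was -0.11, and the medians of type VI and other chains were -0.59 and -0.016, since chains near 0 then enter. For basement membrane chains the median changed sign: it was -0.083 at a filter of 5 FPKM, -0.0035 without one and -0.045 with Col15a1 and Col18a1 included, in each case because the chains entering it differ. A pseudocount of 2 moved the type VI median to -1.04, and a filter of 5 FPKM the FACIT median to -0.70. The count of 5 lower pathway genes was 8 with a pseudocount of 0.1 (with 1 higher), 3 with a pseudocount of 2 and 2 with a filter of 5 FPKM. These moves follow by arithmetic from the settings. A filter of 5 FPKM leaves out Itga1, Itga11 and Mmp9, and a larger pseudocount shrinks the log2 ratios of weak genes. Of 90 recomputed single-chain ratios, 81 moved by no more than their counting error, 9 moved by more, and none whose interval excluded 1 changed sign.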
